A study of Homo sapiens with 4 samples.

Results

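Gemcitabine is a deoxycytidine analogue that kills dividing cells only after it has been taken up and phosphorylated. Equilibrative and concentrative nucleoside transporters carry it across the plasma membrane, deoxycytidine kinase adds its first phosphate, and deaminases and nucleotidases remove the drug or its phosphates. Its diphosphate inhibits ribonucleotide reductase, the enzyme that makes the deoxynucleotides with which the drug competes. The genes described here were 10 genes of this route: the transporters SLC29A1, SLC29A2 and SLC28A1, the kinase DCK, the inactivating enzymes CDA, DCTD and NT5C2, and the reductase subunits RRM1, RRM2 and RRM2B. They were chosen by symbol, and 9 of the 10 had values among the 15222 genes with values in the deposited tables. CDA, the cytidine deaminase that inactivates gemcitabine, had no row in the abundance table, so that no level can be given for it.

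The data were RNA-seq of PANC-1, a cell line from a human pancreatic ductal carcinoma, and of PZT-2, a single clone made from it with lentiviral shRNAs against the isoforms of the histone variant H2A.Z and selected with puromycin, with 2 libraries for each. The study made these libraries to find genes that depend on H2A.Z and looked among them for genes tied to the response to gemcitabine. In a separate cytotoxicity assay it reports that PZT-2 and another knockdown clone were more sensitive to gemcitabine than PANC-1. Whether the levels described here bear on that sensitivity was not tested. No label records that the sequenced cells were given the drug. PANC-1 had been neither transduced nor selected, so in these libraries knockdown, selection and the choice of 1 clone cannot be told apart. The study also sequenced PANC-1 cells with a scrambled shRNA, which are not among these libraries. It reports similar differentially expressed genes against either control. The study calls the libraries of a cell line biological replicates, the labels do not say whether they came from separate cultures, and p-values measure only the spread between these libraries.

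The 4 libraries held between 12861341 and 15717261 estimated counts. H2AFZ, which encodes H2A.Z.1, fell from 6390 and 6034 normalized counts in PANC-1 to 2212 and 2258 in PZT-2, and H2AFV, which encodes the H2A.Z.2 isoforms, fell by 0.36 on the log2 scale (adjusted p = 0.0057, edgeR quasi-likelihood test with Benjamini-Hochberg adjustment over all genes). The ductal keratins KRT8, KRT18 and KRT19 were abundant in both cell lines and fell in PZT-2, by 1.17, 0.81 and 0.73 on the log2 scale. KRT7, the other ductal keratin read, was low, at 104 to 143 normalized counts, and was not called (log2 fold change -0.27, edgeR adjusted p = 0.286). The acinar, endocrine and leukocyte markers PRSS1, CPA1, INS, GCG and PTPRC had no value, and the endothelial marker PECAM1 stayed at or below 12.4 normalized counts in every library. In such bulk libraries, fewer cells of a type and less RNA per cell cannot be told apart.

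Of the 9 genes with values, 4 fell in PZT-2 and 0 rose. These were the transporters SLC29A1 and SLC29A2, the deaminase DCTD and the reductase subunit RRM2B. Over all 15102 genes tested, 13.7% fell and 14.7% rose. DCTD had the largest change of the 4, being 2.04-fold lower, and the others were 1.23-fold to 1.49-fold lower. The libraries of the cell lines did not overlap for 8 of the 9 genes, with PZT-2 above PANC-1 for 4 and below it for 4, which is to be read against 66.3% of all genes. The median log2 fold change of the 9 genes was -0.10, against 0.00089 for all genes tested.

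**Figure D1:**
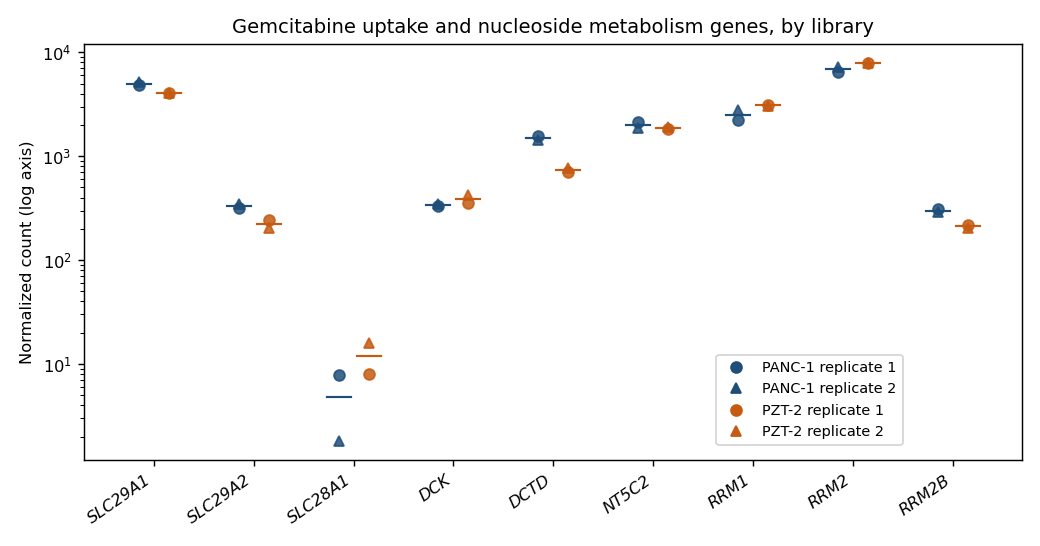
Normalized counts (log axis) of the 9 genes with values in each library of PANC-1 (blue) and PZT-2 (orange), with circles for replicate 1, triangles for replicate 2 and bars for the mean of each cell line. DCTD stands lower in PZT-2 (699 and 767) than in PANC-1 (1559.8 and 1431), whereas the libraries of NT5C2 overlap.

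Within a library, levels were compared between genes by TPM, an abundance scaled for transcript length and for the size of the library. In PANC-1, SLC29A1 at 277 and 308 TPM and RRM2 at 253 and 290 TPM were the most abundant of the 9. Their ranges overlapped between libraries, but within each library SLC29A1 stood above RRM2. RRM1 at 88.3 and 115 TPM and DCTD at 98.6 and 92.5 TPM followed with ranges that overlapped, and NT5C2 was just below them at 76.7 and 69.9 TPM. DCK at 16.6 and 18.0 TPM could not be separated from SLC29A2 at 16.3 and 18.4 TPM. RRM2B lay lower, at 7.92 and 7.72 TPM, and SLC28A1 lay below it at 0.514 and 0.122 TPM.

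In PZT-2 the order had no overlaps. RRM2, at 324 TPM in both libraries, stood above SLC29A1 at 246 and 245 TPM, the reverse of the order within each PANC-1 library. RRM1 came next with 129.7 and 129 TPM. NT5C2 at 69.7 and 72.6 TPM stood above DCTD at 46.6 and 50.6 TPM, the reverse of the order in PANC-1. DCK at 18.6 and 22.1 TPM stood above SLC29A2 at 13.2 and 11.1 TPM, a pair that had overlapped in PANC-1. RRM2B, at 5.91 and 5.58 TPM, and SLC28A1, at 0.557 and 1.09 TPM, were again the lowest of the 9.

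Uptake was the first step examined. SLC29A1 encodes ENT1, the equilibrative transporter that carries most gemcitabine into many cell types. It had 4817 and 5190.3 normalized counts in PANC-1 (mean 5003 ± 264, SD, n = 2) and 4051 and 4055 in PZT-2 (mean 4053 ± 2.40, SD, n = 2). Both PZT-2 libraries were thus below both PANC-1 libraries. SLC29A1 fell by 0.30 (SE 0.06) on the log2 scale, with an edgeR quasi-likelihood adjusted p of 0.0102. The call was lost without either PZT-2 library (adjusted p = 0.0758 and 0.0839), while the log2 fold change stayed at -0.30. Over all alternatives the adjusted p lay between 8.88e-05 and 0.464.

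SLC29A2 encodes ENT2, a related equilibrative transporter. Its normalized counts were 315 and 346 in PANC-1 (mean 331 ± 21.9, SD, n = 2) and 242 and 203 in PZT-2 (mean 222 ± 27.5, SD, n = 2). Again both PZT-2 libraries were the lower ones, and SLC29A2 fell by 0.58 (SE 0.12) on the log2 scale (edgeR adjusted p = 0.0158). Without PZT-2 replicate 2, which had the lowest value, the log2 fold change was -0.45 and the adjusted p was 0.1004, within a range of 0.0049 to 0.293 over all alternatives.

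SLC28A1 encodes CNT1, a sodium-coupled transporter found chiefly in absorptive epithelia. It was near the limit of detection, with 7 and 2 counts in PANC-1 and 8 and 16 counts in PZT-2 before normalization. Its log2 fold change was 1.35 with a 95% interval from -0.44 to 3.14, and the edgeR adjusted p was 0.231. Without PANC-1 replicate 1 it was 2.64 with an adjusted p of 0.0478, a value set against a single PANC-1 library with 2 counts, and over all alternatives the adjusted p reached 0.613.

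SLC29A1 supplied between 87.2% and 89.6% of the summed TPM of the 6 nucleoside transporter genes with values in every library. The share of SLC29A2 was 5.25% and 5.35% in PANC-1 and 4.69% and 3.98% in PZT-2. Both other transporters that were called moved in opposite directions. SLC29A4, a plasma membrane transporter of monoamines and adenosine, rose from 249.8 and 233 to 419.7 and 399 normalized counts, and its share of the transporter TPM went from 3.63% and 3.13% to 7.05% and 6.76%. SLC29A3, a transporter of lysosomes and mitochondria, fell from 82.2 and 99.4 to 39.3 and 40.5 normalized counts.

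DCK makes the monophosphate of gemcitabine, the rate-limiting step of its activation. Its normalized counts were 333 and 349 in PANC-1 (mean 341 ± 11.1, SD, n = 2) and 352 and 421 in PZT-2 (mean 387 ± 48.7, SD, n = 2). The libraries did not overlap, but the gap between the cell lines was no larger than the spread of the PZT-2 libraries. The log2 fold change was 0.18 with a 95% interval from -0.09 to 0.45 (edgeR adjusted p = 0.286), an interval that includes 0 and a rise as large as that of several called genes.

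Inactivation was represented by DCTD and NT5C2. DCTD, the deoxycytidylate deaminase, converts dCMP to dUMP and also deaminates gemcitabine monophosphate. It had 1559.8 and 1431 normalized counts in PANC-1 (mean 1495 ± 91.3, SD, n = 2) and 699 and 767 in PZT-2 (mean 733 ± 48.6, SD, n = 2). The highest PZT-2 value was thus far below the lowest PANC-1 value. DCTD fell by 1.03 (SE 0.08) on the log2 scale, with an edgeR adjusted p of 0.00052, and without any 1 library its log2 fold change stayed between -1.10 and -0.96.

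The level of DCTD relative to DCK, as a ratio of TPM, was 5.93 and 5.15 in the PANC-1 libraries and 2.50 and 2.29 in the PZT-2 libraries. NT5C2, a cytosolic nucleotidase that removes phosphate from nucleoside monophosphates, had 2134 and 1879.8 normalized counts in PANC-1 and 1832 and 1910.2 in PZT-2. Its libraries overlapped, and the log2 fold change was -0.10 with a 95% interval from -0.28 to 0.08 (edgeR adjusted p = 0.387). Without PANC-1 replicate 2 it was -0.20 with an adjusted p of 0.0318, and for its most abundant transcript alone it was 0.10 with an adjusted p of 0.487, and the highest adjusted p of any alternative was 0.918.

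Ribonucleotide reductase is built from the large catalytic subunit RRM1 and a small subunit, either RRM2, which accumulates in S phase, or RRM2B, which p53 induces and which supplies deoxynucleotides outside S phase. RRM1 had 2219 and 2814 normalized counts in PANC-1 (mean 2517 ± 421, SD, n = 2) and 3085 and 3074 in PZT-2 (mean 3079 ± 7.87, SD, n = 2). The gap between the PANC-1 libraries was wider than that between PANC-1 replicate 2 and PZT-2. The log2 fold change was 0.29 with a 95% interval from 0.03 to 0.55, and the edgeR adjusted p was 0.0939. Without PANC-1 replicate 2 the log2 fold change was 0.47 and the adjusted p was 0.00016, whereas the highest value under any alternative was 0.254.

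RRM2 had 6502 and 7209 normalized counts in PANC-1 (mean 6856 ± 499.9, SD, n = 2) and 7835 and 7906 in PZT-2 (mean 7870.3 ± 50.1, SD, n = 2). Both PZT-2 libraries stood above both PANC-1 libraries. The log2 fold change was 0.20 with a 95% interval from 0.05 to 0.35, and the edgeR adjusted p of 0.0545 missed the threshold of 0.05. It passed with the Wald test of DESeq2 (adjusted p = 0.0227), with a minimum of 10 counts in all 4 libraries (0.0394), with the version 4 dispersion estimate of edgeR (0.0494) and without PANC-1 replicate 2 (0.0023). The log2 fold change under these settings was between 0.19 and 0.27, and over all alternatives the adjusted p ranged up to 0.232.

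RRM2B had 307 and 291 normalized counts in PANC-1 (mean 299 ± 11.5, SD, n = 2) and 216 and 206 in PZT-2 (mean 211 ± 7.60, SD, n = 2). Its PZT-2 libraries were the lower ones, the opposite of RRM1 and RRM2. It fell by 0.50 (SE 0.10) on the log2 scale (edgeR adjusted p = 0.0137). This call was lost under DESeq2 (adjusted p = 0.0592), on the TPM scale (0.0557 and 0.0575) and without PZT-2 replicate 1 or 2 (0.0622 and 0.0965), and the lowest adjusted p of any alternative was 0.0104. The ratio of RRM2 to RRM2B in TPM was 32.0 and 37.6 in PANC-1 and 54.8 and 58.1 in PZT-2.

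Because RRM2 and, less strongly, RRM1 follow the cell cycle, 15 S phase genes outside nucleotide metabolism were read beside them. Of these, 4 rose (CDC6, CCNE1, MCM2 and MCM4) and 2 fell (MCM5 and MCM7), where 14.7% of all genes rose and 13.7% fell, and their median log2 fold change was 0.09. Their summed level was 1319 and 1485 TPM in PANC-1 and 1445 and 1487 TPM in PZT-2, so PANC-1 replicate 1 was the lowest here as it was for RRM1 and RRM2. The study also stained synchronized cells with BrdU and propidium iodide. It reports far fewer S phase cells in PZT-2 than in PANC-1, with most knockdown cells arrested in G2/M. That was a measure of cells and not of these libraries. The part of the cell cycle in the values of RRM1 and RRM2 was not tested.

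A promoter of RRM2 is shown because its CCAAT boxes are repeated, and that of RRM1 because it encodes the partner subunit. Both come from the promoter table of RefSeq (GRCh38.p14), which spans 250 bases before and 50 after a start site. The letters CCAAT were searched on both strands, as were the letters TTTNNCGC of an E2F-like motif. Capitals mark the CCAAT box.
RRM2, chr2:10122606-10122635, plus strand: caaggcgcagCCAATgggaagggtcggagg
RRM2, chr2:10122663-10122692, plus strand: ggcaccaaagCCAATgggaagggccgggag
RRM1, chr11:4094647-4094676, plus strand: atgtccatatCCAATggggcccatgggaga

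The 2 boxes of RRM2 printed above begin 123 and 66 bases before a start site, and another lies between them, so this window held 3. At another start site of RRM2 the window held 1, beginning 249 bases before that site. The window of RRM1 held 1, beginning 28 bases before its start site. Of all 35116 promoters in the table, 34.6% held at least 1 CCAAT on either strand. The promoters of SLC29A1, SLC28A1, DCTD and NT5C2 held neither motif in this window. DCK and CDA each held 1 E2F-like match, which 6.89% of all promoters did, and those of RRM1 and RRM2 held 0. No entry was matched for SLC29A2, and the promoter of RRM2B was not searched. These matches describe the letters of the windows and not sites that are in use.

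**Figure D2:**
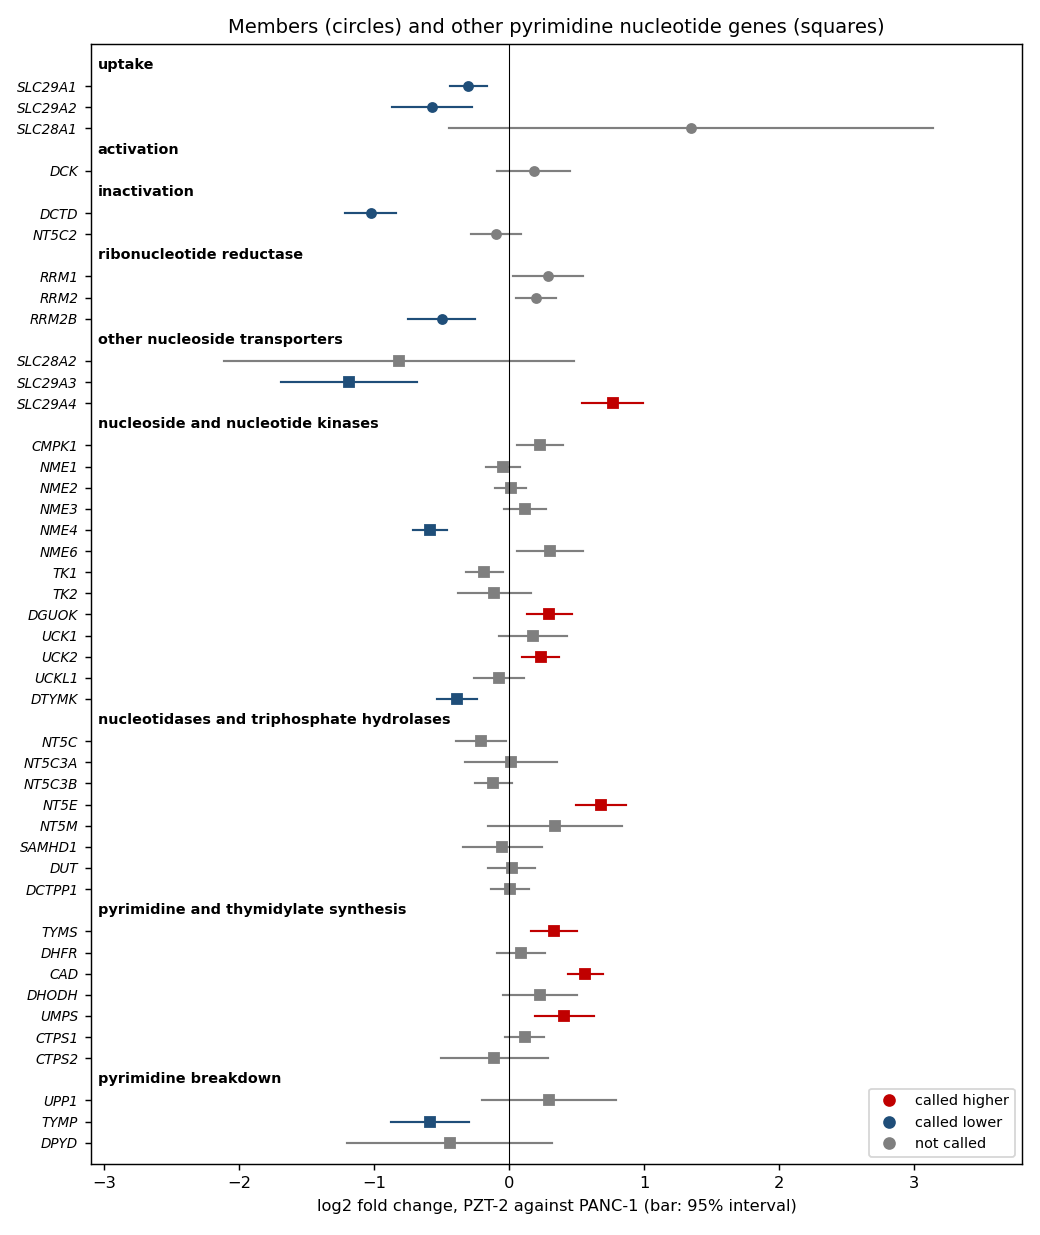
Log2 fold changes in PZT-2 relative to PANC-1 (x axis) with their 95% intervals for the 9 genes (circles) and 34 other genes of pyrimidine nucleotide metabolism (squares), grouped by role. Red marks genes called higher, blue genes called lower and grey those not called. The interval of DCTD lies wholly below 0, and that of DCK spans 0.

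The rest of the pathway was read from a list of 41 further genes of nucleoside transport and pyrimidine nucleotide metabolism, of which 34 had values. In PZT-2, 7 of the 34 rose and 4 fell, against 14.7% and 13.7% of all genes, and their median log2 fold change was 0.01. Those that rose the most after SLC29A4 (log2 fold change 0.76) were NT5E, the cell surface nucleotidase CD73 (0.68), CAD, which opens pyrimidine synthesis (0.56), UMPS, which closes the synthesis of UMP (0.41), and TYMS, the thymidylate synthase (0.33). Those that fell were SLC29A3 (-1.19), TYMP, the thymidine phosphorylase (-0.59), NME4, a mitochondrial nucleoside diphosphate kinase (-0.59), and DTYMK, the thymidylate kinase (-0.39).

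By role, 3 of the 7 tested genes of pyrimidine and thymidylate synthesis rose and 0 fell, where 14.7% and 13.7% of all genes did, and their summed level was 632 and 689 TPM in PANC-1 and 821 and 845 TPM in PZT-2. TYMS, which uses the dUMP that DCTD makes, had 3751 and 4206 normalized counts in PANC-1 and 4851 and 5135 in PZT-2. CAD had 3135 and 3218 in PANC-1 and 4798 and 4583 in PZT-2. Both genes had all PZT-2 libraries above all PANC-1 libraries, whereas DCTD had them below. Of the 13 tested kinases, 2 rose and 2 fell, shares close to those of all genes.

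From genes that earlier work had tied to gemcitabine response, the study kept 8 whose levels were altered in these same libraries. Their direction here is therefore no independent evidence. By RT-qPCR the study also reports DNM1 higher and CTSH lower in PZT-2 and in another knockdown clone. In the gene fit, 2 of the 8 rose and 5 fell, where 14.7% and 13.7% of all genes did. These shares are no fair yardstick, since the 8 were kept because they changed. DNM1, a dynamin of endocytosis, rose from 262 and 270.2 to 789 and 756 normalized counts (log2 fold change 1.54). BNIP3, a mitochondrial protein of cell death and mitophagy, rose by 0.32 on the log2 scale.

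CTSH, a lysosomal cysteine protease, fell from 443 and 397 to 170.1 and 161 normalized counts (log2 fold change -1.34). Others that fell were UNC13B, a protein of vesicle priming (-0.45), PPP3CB, a catalytic subunit of calcineurin (-0.33), and RPS21, a ribosomal protein (-0.23). SLC9A3, a sodium/proton exchanger, had 73.1 and 66.0 normalized counts in PANC-1 and 60.4 and 58.3 in PZT-2. Its log2 fold change of -0.23 did not pass (edgeR adjusted p = 0.438). The study used another test, on transcripts and not on gene sums, so this value does not repeat its call. DCTD, with -1.03, lay between UNC13B and CTSH in size, whereas SLC29A1, with -0.30, lay between RPS21 and PPP3CB.

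Transcripts were then examined, since a gene's reads are divided among its transcripts by estimation. The 9 genes had 49 transcripts with values, and 46 of them were tested. With edgeR, 0 of the 46 passed, where 0.148% of all 30403 transcripts did. An unadjusted edgeR p under 0.05 was found for 8 of the 46 and for 5613 of the 30403, which are close shares. With DESeq2, 7 of the 46 fell and 0 rose, where 14.4% of all transcripts passed in either direction. The 7 were 3 of DCTD, 2 of SLC29A1, 1 of SLC29A2 and 1 of RRM2B.

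All 6 transcripts of SLC29A1 had a negative log2 fold change, but not of one size. NM_001304466 had 1677 and 1929.9 normalized counts in PANC-1 and 1656 and 1691 in PZT-2, which overlapped. NM_001078175 had 731 and 844 in PANC-1 and 546 and 489 in PZT-2 (DESeq2 adjusted p = 0.00038), and NM_001304463 had 1698 and 1858 in PANC-1 and 1328 and 1423 in PZT-2 (DESeq2 adjusted p = 0.00061). NM_001304466, the most abundant over the 4 libraries, was therefore the 1 that hardly differed, and the gene tested by it alone was not called (log2 fold change -0.10, edgeR adjusted p = 0.464).

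The 2 leading transcripts of DCTD were both lower in PZT-2. NM_001012732 had 915 and 732 normalized counts in PANC-1 and 317 and 499.8 in PZT-2 (DESeq2 adjusted p = 0.0021), and NM_001921 had 303 and 362 in PANC-1 and 233 and 134 in PZT-2 (DESeq2 adjusted p = 0.0852). NM_001351750 had 94.5 and 44.5 in PANC-1 and 0 in both PZT-2 libraries. Between libraries of 1 cell line the split among transcripts shifted widely, since NM_001012732 supplied 45.5% of the normalized counts of DCTD in PZT-2 replicate 1 and 65.3% in replicate 2.

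RRM2B was divided unevenly as well. Its main transcript NM_015713 had 277 and 292 normalized counts in PANC-1 and 128 and 169.6 in PZT-2 (log2 fold change -0.94, DESeq2 adjusted p = 0.0026), a larger difference than for the gene as a whole. The transcript NM_001172477 had 30.4 and 0 in PANC-1 and 78.4 and 20.7 in PZT-2. Of SLC29A2, NM_001300868 had 11.2 and 16.3 in PANC-1 and 0 in both PZT-2 libraries (DESeq2 adjusted p = 0.0409), and the main transcript NM_001532 was not called.

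The surroundings of each gene were read from the 10 tested genes on each side of it in the RefSeq table. DCTD lies on chromosome 4 among genes that were also lower in PZT-2. The median log2 fold change of its 20 neighbours was -0.80, against -0.01 for the 487 tested genes of the chromosome, and 10 of the 20 fell and 0 rose. The 4 tested genes before it and the 8 after it were all lower, with log2 fold changes from -1.79 to -0.71, and 10 of these 12 were called. This run was noticed after the values were seen. The median of the 12 was -1.02, beside -1.03 for DCTD, and 0 of the other 8 neighbours were called.

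The other genes that fell had no run of that length beside them. The median log2 fold change of the 20 neighbours was 0.01 for SLC29A1, -0.01 for SLC29A2 and -0.08 for RRM2B. Of these neighbours, 1 fell and 1 rose around SLC29A1, 6 and 3 around SLC29A2, and 4 and 1 around RRM2B. Over all genes, 13.7% fell and 14.7% rose. The 3 tested genes before RRM2B and the 1 after it were also lower, with a median of -0.34, and 2 of these 4 were called. Around RRM2 on chromosome 2 the median of the neighbours was 0.31, and 8 of the 20 rose and 0 fell. This median stood beside 0.20 for RRM2 and 0.12 for the 957 tested genes of that chromosome. Around DCK it was 0.27, and 9 rose and 1 fell, with values from -5.69 to 6.58. The part of the chromosomal region in the values of DCTD and RRM2 was not tested.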

How the data were processed

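RNA from 2 libraries of PANC-1 and 2 of PZT-2 was sequenced as stranded paired-end mRNA libraries. Per the labels and the methods, the authors used Trim Galore 0.4.1 for trimming, kallisto 0.43.0 on RefSeq transcripts for quantification and sleuth 0.29.0 for the comparison. The submitters' notes name hg19, and the release of the transcript index is not given in the sources used here. The deposited estimated counts carried 1 factor per library (1.16 and 0.935 in PANC-1, 1.03 and 1.01 in PZT-2), found from low values of genes with 1 transcript and undone here. The deposited TPM, which summed to 940619 to 1.0001e+06 per library, was rescaled to the same sum in each library. It served to compare genes within a library, and summed TPM and shares were also set side by side between libraries. In the 2 alternatives on the TPM scale the median log2 fold change of all genes was 0.045 and 0.057, against 0.00089 in the main fit. The deposited columns of p, q and effect from sleuth were not used.

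Estimated counts were rounded and summed per gene, by the symbol in the table for 27049 transcripts and by accession in RefSeq GRCh38.p14 for 3925 more. The other 103 transcripts, with 0.0466% of the counts, stayed unnamed. Without the accessions DCTD had a log2 fold change of -0.95 and NT5C2 of -0.02. Genes reaching 5 counts in 2 or more libraries were tested with edgeR 4.0.16 (TMM, quasi-likelihood) in R 4.3.3, with Benjamini-Hochberg adjustment over all genes and a threshold of 0.05, and transcripts likewise. The fit was tested on simulated data in which every gene had the same dispersion and the changes were larger than most seen here. That test does not show how well small changes are found. Normalized counts are counts over effective library size, scaled to the mean library. With 2 against 2 libraries an exact two-sided permutation test cannot go below p = 0.333, so none was run.

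Alternatives were RLE factors, DESeq2 1.42.0, other filters, limma 3.58.1 on log2(TPM + 1) and log2(TPM + 0.1), a replicate block, each library left out, counts as deposited or length-scaled, the most abundant transcript, only transcripts with a symbol and, added after the values were seen, the version 4 dispersion estimate of edgeR. All 10 genes, the 8 of the study and up to 5 called pathway genes in each direction were to be named, and the values of 1 gene of the study are not reported here. The genes and lists were chosen with earlier results of these data known.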

Additional observations from a re-analysis of the deposited data

How the results depend on the processing

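Of the 9 genes, 4 were called lower and 0 higher. Leaving out 1 library gave 1 to 5 lower and 0 to 2 higher, and for the pathway list 1 to 6 lower and 3 to 9 higher, and for the 8 genes of the study 3 to 5 lower and 1 to 2 higher. The fewest calls for the 9 genes came without PZT-2 replicate 2 (1 lower, DCTD) and without PZT-2 replicate 1 (2 lower), and with a lone library its spread was taken from the other cell line. DESeq2, a minimum of 10 counts in all 4 libraries and the version 4 dispersion estimate, which was chosen after seeing the data, each gave 1 higher, RRM2. With the most abundant transcript alone, 1 of the 9 was called lower, 2 pathway genes higher and 1 lower, and 1 gene of the study higher and 3 lower, and NT5C2 turned to 0.10; the cause was not tested. DESeq2 called 7 of the transcripts of the 9 genes lower and edgeR 0, and over all transcripts 4374 and 45.

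With the replicate block, 4 of the 9 genes were called lower and 0 higher, and 4 of the genes of the study lower. Replicate numbers were given in accession order and share nothing in the labels, and the differences between replicates of the cell lines correlated by -0.04 over 10053 genes. SLC28A1 had no value under the minimum of 10 counts in all 4 libraries and no adjusted p from DESeq2. DCTD was called lower under every setting run except the most abundant transcript alone (adjusted p = 0.065). Genes with few reads, such as SLC28A1, are limited by depth, and replicate variation was 5.91 times counting variation in PANC-1 and 3.39 times in PZT-2.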
